A study of Ovis aries with 2 samples.

Results

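The genes described here are the nuclear-encoded genes of the mitochondrial respiratory chain and ATP synthase that the deposited matrices list by symbol. They were taken as every symbol that starts with NDUF, UQCR or ATP5, that is SDHA, SDHB, SDHC or SDHD, or that is COX followed by a number, a letter from A to C and optional digits. The rule found 39 of 13765 listed features, against 70 matching symbols in RefSeq's genes of assembly ARS-UI_Ramb_v3.0. 24 are NDUF subunit genes, 3 are NDUFAF assembly factors of complex I, SDHB and SDHC belong to complex II, UQCRH belongs to complex III and 9 belong to ATP synthase. No symbol of the COX form was among the listed features, so complex IV is represented only by NDUFA4, a subunit that was named for complex I and is now assigned to complex IV, and by its paralogue NDUFA4L2. Following their symbols, both are counted with complex I in every sum, ratio and figure by complex. The remaining symbols were not analysed here.

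The respiratory chain passes electrons from NADH (complex I) and succinate (complex II) through complex III to complex IV, where oxygen is reduced, and pumps protons across the inner mitochondrial membrane on the way. ATP synthase uses the proton gradient to make ATP. In the cortex the chain supplies most of the energy for ion pumping and synaptic transmission. Most of its subunits are encoded in the nucleus by short, widely expressed genes, whose messenger RNAs are exported and translated in the cytosol.

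The samples were 2 libraries of single nuclei from the cerebral cortex of an adult wildtype Rambouillet ewe, for which the labels give 18 to 36 months of age and the same batch. The pre-processed library came from nuclei isolated straight from dissected cortex. For the post-processed library, debris and red blood cells were removed from the tissue before nuclei isolation, according to its title and the series description. Its treatment label repeats the wording of the other library, so the direction of every comparison between the libraries rests on the titles. The purpose of the comparison was to see how this handling affects the mix of neural cell types recovered. Each condition had 1 library without replicates. No significance test was possible, and every interval given is a 95% interval for counting error alone.

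The libraries stood apart in depth. The 2125 pre-processed barcodes had 904 UMIs or more each, with a median of 2524 UMIs (unique molecular identifiers, each counting 1 captured RNA molecule). Of 905 post-processed barcodes, 494 passed a minimum of 100 detected genes and are called nuclei here, with a median of 667.5 UMIs. The other 411 are described apart. The study states about 5000 nuclei per condition. No cell barcode was shared between the libraries. Levels are UMIs of a gene, or of all 39 genes together, per 1000000 UMIs of the listed features (CPM). Respiratory chain genes gave 12667 UMIs in the pre-processed nuclei, 1629 in the post-processed nuclei and 159 in the 411 shallow barcodes. 38 of the 39 had at least 20 UMIs over the nuclei of both libraries and could be compared one by one. The exception was NDUFA4L2, with 8 UMIs in the pre-processed and 1 in the post-processed nuclei.

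Cell classes were named from marker genes after clustering, and no respiratory chain gene was among the 2000 variable genes that defined the clusters. Neuron-like nuclei (1052), oligodendrocyte precursor-like nuclei (109) and all but 2 of the astrocyte-like nuclei (357 pre-processed) came from the pre-processed library. Microglia-like nuclei (85 pre-processed, 180 post-processed), oligodendrocyte-like nuclei (179 and 57) and endothelial-like nuclei (8 and 29) were found in both. Cluster 2, with 334 pre-processed nuclei and with the astrocyte marker S100B and the neuronal marker NEFL among its leading genes, was left unnamed. Cluster 5, with 226 post-processed nuclei and 1 pre-processed nucleus and led by GNLY and THBS1, was also left unnamed. Its closest class was microglia, with all 8 listed microglial markers detected, at 9773 CPM together in the post-processed nuclei. It got no name because GNLY, a listed lymphocyte marker, led its top genes. A cluster found almost only in one library may be a feature of that library.

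Within the pre-processed library, respiratory chain RNA made up a smaller part of the listed RNA in neuron-like nuclei than in astrocyte-like and microglia-like nuclei. The summed level was 1129 CPM in neuron-like nuclei (1104 to 1154). It was 1189 CPM in oligodendrocyte precursor-like nuclei (1066 to 1322) and 1291 CPM in oligodendrocyte-like nuclei (1166 to 1427). The intervals of these last 2 classes overlap, and that of the precursor-like nuclei also overlaps the neuronal one. Astrocyte-like nuclei had 1997 CPM (1913 to 2084) and microglia-like nuclei 2048 CPM (1811 to 2308), a pair that does not differ beyond counting error. The 8 endothelial-like nuclei had 4029 CPM, and unnamed cluster 2 had 2393 CPM (2266 to 2525). Neuron-like nuclei also had the most UMIs per nucleus, with a median of 5022 against 1929 in all other named nuclei together.

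**Figure D1:**
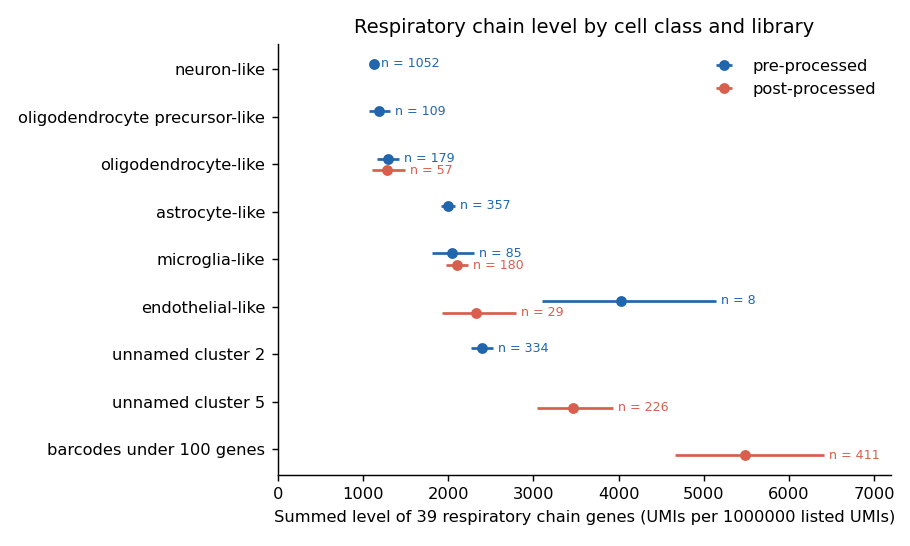
Summed level of the 39 respiratory chain genes in each cell class, as UMIs per 1000000 listed UMIs, for the pre-processed (blue) and post-processed (red) library. Bars are exact Poisson 95% intervals, n is the number of barcodes, and groups under 5 barcodes are not drawn. Neuron-like nuclei lie lowest at 1129, and the microglia-like and oligodendrocyte-like pairs of the libraries overlap.

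Set against the other named nuclei of that library together (1771 CPM), neuron-like nuclei were lower by a log2 ratio of -0.65 (-0.71 to -0.59). All 38 measured genes had a ratio below 0, in a comparison where 64.6% of the 7289 measured genes did. 12 of the 38, or 31.6%, were at least 2-fold lower, against 28.1% of all measured genes, so the share past 2-fold was close to the background. The median ratio was -0.67 for the respiratory chain genes and -0.38 for all genes. When the scale was set by the median gene ratio, the summed ratio was -0.19. This median gene ratio, here -0.46, is taken only over genes with at least 20 UMIs in each of the 2 sums, here and below. Without that change of scale, the summed ratio was -0.24 among nuclei with 1000 to 3000 UMIs and -0.36 without the astrocyte-like nuclei.

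The genes of the chain did not share 1 neuronal ratio. NDUFA10, an accessory subunit of complex I, had 72.9 CPM in neuron-like nuclei, 80.5 in astrocyte-like nuclei and 70.4 in oligodendrocyte-like nuclei, and its neuronal ratio to the other nuclei was -0.04 (-0.31 to 0.25). NDUFAF7, a methyltransferase that acts on complex I during assembly, had 79.6, 86.2 and 124 CPM in the same order, with a ratio of -0.26 (-0.51 to -0.00081). SDHB, the iron-sulphur subunit of succinate dehydrogenase, had 167 CPM in neuron-like and 237 CPM in astrocyte-like nuclei, and its neuronal ratio was -0.27 (-0.44 to -0.10). All 3 ratios lay above the median gene ratio of -0.46, although the interval of NDUFAF7 includes it. Of the 38 genes 27 lay below that ratio and 11 above it.

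Other genes were far lower in neuron-like nuclei. SDHC, a membrane anchor of complex II, had 10.1 CPM in neuron-like, 34.1 in astrocyte-like, 47.0 in oligodendrocyte-like and 53.3 in microglia-like nuclei, and its neuronal ratio was -1.85 (-2.35 to -1.34). NDUFA2, an accessory subunit of complex I, had 11.6 CPM in neuron-like and 46.4 in astrocyte-like nuclei, a ratio to the other nuclei of -1.85 (-2.32 to -1.38). ATP5IF1, the inhibitor protein of ATP synthase, had 10.2 CPM in neuron-like and 37.9 in astrocyte-like nuclei, a ratio of -1.90 (-2.39 to -1.40). ATP5IF1 falls outside the rule by which genes were named and was chosen after its values were seen. The paired subunits SDHB and SDHC, which act in 1 complex, had neuronal ratios whose intervals do not overlap. For astrocyte-like over neuron-like nuclei with 1000 to 3000 UMIs the intervals do overlap, at 0.48 (0.05 to 0.90) for SDHB and 1.05 (-0.30 to 2.50) for SDHC.

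By complex and over all depths, the astrocyte-like level exceeded the neuron-like level most for ATP synthase, with 519 against 231 CPM, a log2 ratio of 1.17 (1.02 to 1.31). The subunits of complex I had 1011 against 569 CPM, a ratio of 0.83 (0.73 to 0.93). Complex II had 271 against 177 CPM, or 0.62 (0.43 to 0.80), UQCRH of complex III had 71.0 against 53.9 CPM, or 0.41 (0.02 to 0.76), and the assembly factors had 125 against 97.7 CPM, or 0.36 (0.08 to 0.63). Of the 38 genes 18, or 47.4%, were at least 2-fold higher in astrocyte-like nuclei, against 26.8% of all measured genes. None was 2-fold lower, against 19.4%. The median gene ratio of this comparison was 0.46 over genes with at least 20 UMIs in each sum, which UQCRH and the assembly factors did not exceed. Over all measured genes the median was 0.31, below both of their ratios. Among nuclei with 1000 to 3000 UMIs ATP synthase did not lead, with ratios of 0.57 (0.38 to 0.77) for complex I, 0.54 (0.13 to 0.94) for complex II and 0.50 (0.25 to 0.76) for ATP synthase. UQCRH, at -0.18 (-0.96 to 0.55), and the assembly factors, at 0.40 (-0.18 to 0.96), then had intervals that include 0.

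Part of the order of classes went with depth. Among nuclei with 1000 to 3000 UMIs, the summed level was 1569 CPM in neuron-like, 2235 in astrocyte-like and 2146 in microglia-like nuclei. The astrocyte-like ratio to neuron-like nuclei was then 0.51 (0.38 to 0.65) and the microglia-like ratio 0.45 (0.24 to 0.66). Oligodendrocyte-like nuclei (1351 CPM) and oligodendrocyte precursor-like nuclei (1184 CPM) were below neuron-like nuclei at this depth, with ratios of -0.21 (-0.40 to -0.03) and -0.40 (-0.66 to -0.16). Their position against neurons therefore turned round in this range of depth. On a scale set by the median gene ratio the astrocyte-like ratio was 0.30, but the microglia-like ratio turned to -0.37. For microglia-like nuclei that median, over genes with at least 20 UMIs in each sum, was 0.82. Over all measured genes it was 0.19, which the microglia-like ratio of 0.45 exceeds, so the turn rests on the genes that set the scale.

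The level of respiratory chain RNA was higher in shallow nuclei than in deep ones. Pre-processed nuclei in the shallowest quartile (904 to 1416 UMIs) had 2094 CPM (1980 to 2212). The second quartile had 1802 CPM, the third 1502 and the deepest quartile, from 5592 UMIs up, 1103 (1077 to 1130). The ratio of the outer quartiles was 0.93 (0.84 to 1.01) on the log2 scale. 18 of 38 genes, or 47.4%, were at least 2-fold higher in the shallowest quartile, against 25.6% of 6898 measured genes. None was 2-fold lower, against 4.96%, and 35 ratios were above 0, against 69.5%. The median ratio was 0.97, and 0.41 over all genes, and on the scale of the median gene ratio the summed ratio was 0.49. Neuron-like nuclei are mostly deep, so the quartiles differ in class as well.

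The gradient was also present within neuron-like nuclei alone. Their level was 1650 CPM in the shallowest quartile, 1313 in the second, 1160 in the third and 1014 in the deepest, a ratio of 0.70 (0.58 to 0.82) between the outer quartiles. 14 of 37 measured genes were at least 2-fold higher, or 37.8%, against 18.1% of all measured genes. On the median gene scale this ratio was 0.44. Cytosolic ribosomal protein genes, which served as a measure of other short housekeeping transcripts, had a ratio of 1.17 (1.07 to 1.27) in the same nuclei. Astrocyte-like nuclei went from 2647 CPM in their shallowest quartile to 1775 in their deepest. Oligodendrocyte-like nuclei showed no such order, with 995, 1727, 1280 and 1196 CPM from the shallowest to the deepest quartile. Post-processed microglia-like nuclei had 1735, 2266, 1970 and 2151 CPM, also with no steady fall.

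**Figure D2:**
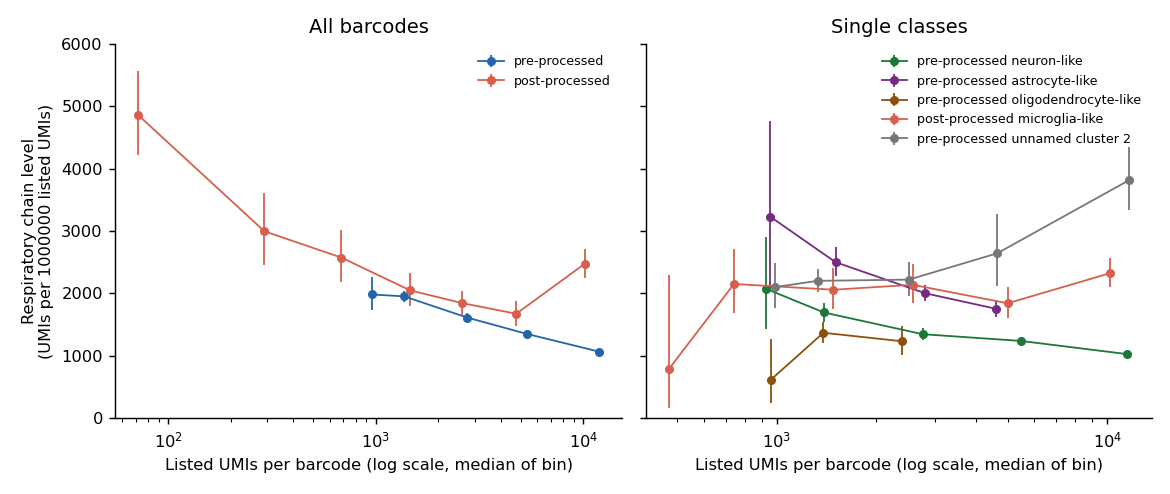
Summed level of the 39 genes in bins of listed UMIs per barcode (log scale), for all barcodes of each library on the left and for single classes on the right. Points stand at the median UMIs of each bin, bars are exact Poisson 95% intervals and bins under 5 barcodes are not drawn. Pre-processed neuron-like nuclei fall from 1694 between 1000 and 2000 UMIs to 1026 at 8000 UMIs and over, while post-processed microglia-like nuclei stay between 1842 and 2325 from 1000 UMIs up.

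The depth gradient was uneven over the chain. ATP synthase genes had 586 CPM in the shallowest and 215 in the deepest quartile of all pre-processed nuclei, a ratio of 1.45 (1.27 to 1.62). Complex I had 1088 and 553 CPM, a ratio of 0.98 (0.85 to 1.10), and UQCRH had 87.5 and 53.7 CPM, a ratio of 0.71 (0.26 to 1.13). Complex II had 213 and 182 CPM, and its ratio of 0.23 (-0.05 to 0.49) did not exceed counting error. The same held for the assembly factors, with 119 and 99.1 CPM and a ratio of 0.27 (-0.11 to 0.62). Both lay below the median gene ratio of 0.43.

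Single genes differed more. ATP5F1B, the catalytic beta subunit of ATP synthase, had 154, 128, 88.0 and 53.6 CPM from the shallowest to the deepest quartile. ATP5ME, a small membrane subunit of ATP synthase, had 117, 96.8, 69.5 and 35.8 CPM. NDUFA13, a complex I subunit also known as GRIM-19, had 82.6, 61.9, 45.5 and 24.3 CPM. Each of these genes fell at every step. SDHB had 167, 195, 176 and 171 CPM, a ratio of -0.03 (-0.35 to 0.26), and NDUFS1, the largest iron-sulphur subunit of complex I, had 24.8, 38.9, 27.0 and 28.6 CPM, a ratio of -0.17 (-1.08 to 0.55). Neither differed between the outer quartiles beyond counting error, and without SDHB, the gene with the most UMIs, the summed ratio was 1.05. NDUFS1 falls outside the rule by which genes were named and was chosen with the values of these data known. SDHC had 46.2, 28.9, 19.996 and 10.9 CPM, a ratio of 2.10 (1.39 to 2.75). Within neuron-like nuclei SDHC had 16.8 CPM in the shallowest and 10.4 CPM in the deepest quartile, and its ratio of 0.78 (-0.71 to 1.87) did not exceed counting error.

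**Figure D3:**
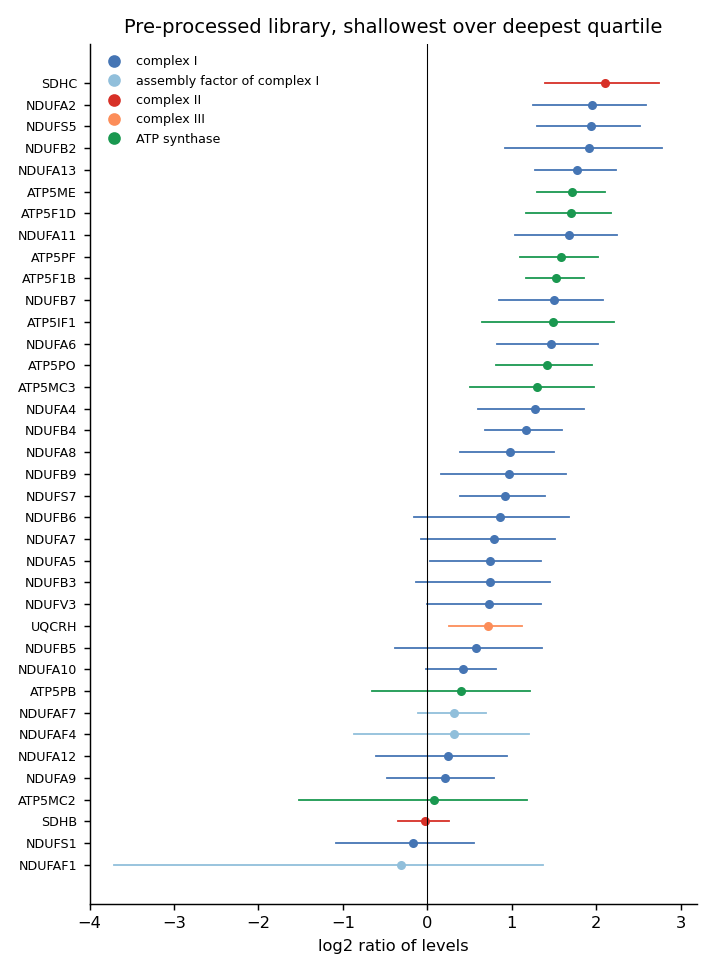
Log2 ratio of the level in the shallowest over the deepest quartile of pre-processed nuclei for 37 of the 38 measured genes, coloured by complex. Bars are exact conditional 95% intervals for counting error. SDHC is highest at 2.10, and SDHB at -0.03 and NDUFS1 at -0.17 lie near 0.

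Within a class, respiratory chain levels went with the share of ribosomal protein UMIs in the nucleus. Neuron-like nuclei with at least 1000 UMIs, ranked by that share into 3 groups of equal size, had 952, 1095 and 1632 CPM. The corresponding values were 1608, 1785 and 2698 CPM in astrocyte-like nuclei, 921, 1167 and 1944 CPM in oligodendrocyte-like nuclei, and, for microglia-like nuclei of the post-processed library, 1310, 1640 and 2794 CPM. The neuronal groups also differed in depth, with median UMIs of 8676, 6636 and 2600. Depth differed less over the microglia-like groups, at 1913, 2576 and 2476.5 UMIs.

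Between the libraries, respiratory chain RNA made up 1322 CPM in all pre-processed nuclei (1299 to 1345) and 2129 CPM in all post-processed nuclei (2027 to 2235). The log2 ratio was 0.69 (0.61 to 0.76), or 1.61-fold. 13 of 38 genes were at least 2-fold higher in the post-processed library, or 34.2%, against 30.4% of 7615 measured genes. 1 gene was at least 2-fold lower, against 24.7%. 30 of the 38 ratios were above 0, against 57.8% of all genes, and the median was 0.62 against 0.33. Over the genes with at least 20 UMIs in each library the median ratio was 0.67. On that scale, where 18 of the 38 genes lay above 0 and 20 below, the summed ratio was 0.018 and 3 genes, NDUFA13, NDUFB2 and NDUFS5, were at least 2-fold higher, against 17% of all measured genes. Ribosomal protein genes had a ratio of 2.21 (2.17 to 2.25).

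The classes in the sums were not the same, since no post-processed nucleus was neuron-like, and the depths differed as well. Among nuclei with 1000 to 3000 UMIs, 1074 pre-processed nuclei had 1834 CPM and 136 post-processed nuclei had 1897 CPM, a ratio of 0.050 (-0.09 to 0.19). At that depth 4 of 37 genes (ATP5MC2, ATP5PB, NDUFA4 and NDUFA13) were at least 2-fold higher, or 10.8%, against 20.8% of all measured genes, and 7 were at least 2-fold lower, or 18.9%, against 27.3%. The ribosomal protein ratio there was 1.10 (1.02 to 1.17). The median gene ratio in these nuclei was 0.60 over genes with at least 20 UMIs on each side, and relative to it the summed ratio was -0.55. Over all measured genes the median was 0.03, and over the 37 respiratory chain genes it was -0.03. The -0.55 thus rests on the genes that set the scale.

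Complex I genes spanned the full range of library ratios and together had 666 and 1082 CPM, a ratio of 0.70 (0.59 to 0.81). NDUFA13 stood at 36.3 CPM in the pre-processed and 167 in the post-processed library, a ratio of 2.21 (1.90 to 2.50). NDUFB2 had 10.02 and 44.4 CPM, a ratio of 2.16 (1.54 to 2.73), and NDUFS5 had 23.1 and 87.6 CPM, a ratio of 1.93 (1.51 to 2.32). NDUFA2 had 19.6 and 61.4 CPM, or 1.66 (1.15 to 2.11). NDUFB2, NDUFS5 and NDUFA2 are small accessory subunits. The shallow over deep ratios of the 4 genes within the pre-processed library, whose nuclei enter both comparisons, were 1.78 for NDUFA13, 1.92 for NDUFB2, 1.93 for NDUFS5 and 1.95 for NDUFA2. Between the libraries at 1000 to 3000 UMIs, NDUFA13 kept an interval above 0, at 1.29 (0.72 to 1.81). The others did not, with 0.90 (-0.49 to 1.97) for NDUFB2, 0.75 (-0.10 to 1.47) for NDUFS5 and -0.18 (-1.52 to 0.80) for NDUFA2.

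At the other end, NDUFS7, a core subunit that carries an iron-sulphur cluster, stood at 42.6 and 15.7 CPM in that order, a ratio of -1.38 (-2.41 to -0.62) from 408 and 12 UMIs. NDUFA10 had 73.8 and 48.4 CPM, a ratio of -0.59 (-1.13 to -0.13). These were the only 2 genes of the 38 whose interval lay below 0, against 26.1% of all measured genes. An interval above 0 was found for 20 genes of the 38, against 41.1% of all. Among nuclei with 1000 to 3000 UMIs 4 of 37 intervals lay above 0 (ATP5F1B, ATP5PB, NDUFA4 and NDUFA13), against 28.1%, and 5 below 0 (ATP5PF, NDUFA10, NDUFA11, NDUFB4 and NDUFS7), against 26.1%. NDUFB5 had a ratio of -0.35, NDUFB4 of -0.27 and NDUFA5 of -0.26, each with an interval that includes 0. NDUFA4 had 23.2 and 65.3 CPM, or 1.51 (1.02 to 1.94), while for its paralogue NDUFA4L2 the 8 and 1 UMIs allow no statement.

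The sums of the assembly factors, complex II and complex III lay below the median gene ratio of 0.67. That of the assembly factors lay above the median of 0.33 over all measured genes. The 3 assembly factors summed to 104 and 139 CPM before and after processing, a ratio of 0.42 (0.12 to 0.71). NDUFAF7 had 82.0 and 119 CPM, or 0.54 (0.21 to 0.85), and NDUFAF4 (15.7 and 13.1 CPM) and NDUFAF1 (5.95 and 6.53 CPM) had intervals that include 0. SDHB had 174 and 165 CPM, a ratio of -0.08 (-0.36 to 0.18), and SDHC had 16.9 and 34.0 CPM, a ratio of 1.03 (0.35 to 1.61). At 1000 to 3000 UMIs the SDHC ratio was -0.85 (-2.93 to 0.42) and that of NDUFAF7 0.33 (-0.31 to 0.88), so neither interval remained above 0. UQCRH, the hinge protein of complex III, had 60.1 and 70.6 CPM, a ratio of 0.24 (-0.20 to 0.64). Without SDHB the summed ratio of the libraries was 0.78.

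ATP synthase had a higher ratio than complex I, with 301 and 639 CPM before and after processing, or 1.09 (0.94 to 1.22), and the intervals do not overlap. At 1000 to 3000 UMIs the ratios were 0.25 (-0.01 to 0.49) for ATP synthase and -0.05 (-0.26 to 0.15) for complex I, which do overlap. ATP5F1B had 74.8 and 182 CPM, or 1.28 (1.01 to 1.54). ATP5PB, a subunit of the peripheral stalk, had 19.3 and 57.5 CPM, or 1.59 (1.07 to 2.06). ATP5ME had 54.4 and 124 CPM, or 1.20 (0.86 to 1.51). The 3 intervals lay above the median gene ratio. At 1000 to 3000 UMIs the ratios were 0.59 (0.11 to 1.03) for ATP5F1B, 1.35 (0.40 to 2.17) for ATP5PB and 0.28 (-0.35 to 0.82) for ATP5ME. ATP5F1D, the delta subunit of the central stalk, had 34.0 and 43.1 CPM, or 0.36 (-0.22 to 0.86), and ATP5PF, the coupling factor of the stalk, had 41.6 and 57.5 CPM, or 0.48 (-0.02 to 0.92), neither beyond counting error. In nuclei with 1000 to 3000 UMIs ATP5PF turned to -1.45 (-3.03 to -0.40), below 0 beyond counting error. ATP5MC2 (11.1 and 27.4 CPM) and ATP5MC3 (19.0 and 47.0 CPM) encode the same ring subunit c and had ratios of 1.34 (0.56 to 1.996) and 1.32 (0.75 to 1.83). In the narrower range these were 1.41 (-0.02 to 2.56) and 0.81 (-0.28 to 1.68).

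**Figure D4:**
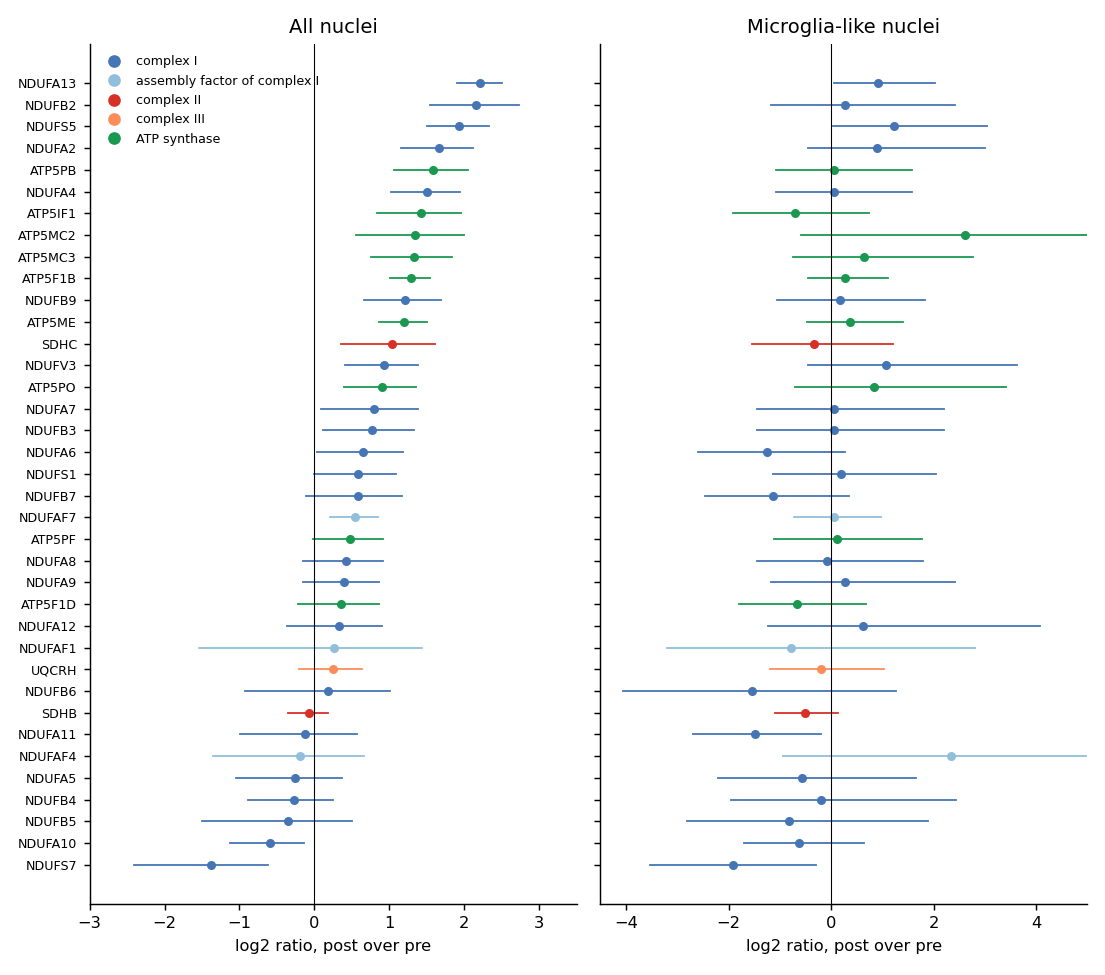
Log2 ratio of post-processed over pre-processed level for 37 of the 38 measured genes, over all nuclei on the left and over microglia-like nuclei on the right, in the order of the left panel and coloured by complex. Bars are exact conditional 95% intervals for counting error, cut at the edge of the panel, and genes under 20 UMIs in the microglia-like sums are drawn but not counted in the text. In all nuclei NDUFA13 is highest at 2.21 and NDUFS7 lowest at -1.38, and in microglia-like nuclei most intervals include 0.

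The classes with most nuclei in both libraries were the microglia-like and oligodendrocyte-like ones. Microglia-like nuclei had 2048 CPM before processing, from 269 UMIs, and 2105 CPM after it (1979 to 2237), from 1041 UMIs. The ratio was 0.04 (-0.16 to 0.24), which does not exceed counting error, and on the median gene scale it was 0.18. Ribosomal protein genes differed in the same nuclei, with a ratio of 1.23 (1.09 to 1.37). Of 29 measured genes 2 (NDUFS5 and NDUFV3) were at least 2-fold higher, against 10.2% of all measured genes, and 3 (NDUFA6, NDUFA11 and NDUFB7) at least 2-fold lower, against 12.2%. With classes assigned by marker UMIs alone, which put 217 post-processed nuclei in this class, the ratio was 0.40 (0.24 to 0.56). With unnamed cluster 5 counted as microglia-like, an alternative chosen after seeing the data, the ratio was 0.13 (-0.06 to 0.32). 14 nuclei with at least 8000 UMIs held 388 of the 1041 post-processed respiratory chain UMIs, and the level without them was 1993 CPM.

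Of the 29 measured genes in microglia-like nuclei 2 had an interval above 0, against 12.3% of all measured genes, and 1 had an interval below 0, against 15.5%. NDUFA13 had 83.7 CPM before processing, from 11 UMIs, and 81 UMIs after it, a ratio of 0.91 (0.05 to 2.03), and NDUFS5 had 5 and 48 UMIs, a ratio of 1.23 (0.03 to 3.04). NDUFA11, an accessory subunit of complex I named here after its values were seen, had 11 and 15 UMIs, a ratio of -1.48 (-2.69 to -0.20). At 1000 to 3000 UMIs the ratio was 1.20 (0.07 to 2.62) for NDUFA13 and 0.68 (-0.89 to 2.63) for NDUFS5. For NDUFA11 it was -4.78, with an upper limit of -1.55. Only 5 genes held at least 20 UMIs in this class at that depth, and NDUFS5 and NDUFA11 were not among them. NDUFS7, with 8 UMIs in each library, lies under the minimum of 20 UMIs in this class. Complex I as a whole had a ratio of 0.04 (-0.24 to 0.33), complex II of -0.46 (-0.99 to 0.11) and ATP synthase of 0.24 (-0.14 to 0.65) in this class.

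Marker RNA of other classes was present in the microglia-like sums. Of 19 listed neuronal markers 17 were detected in the pre-processed sum, at 8344 CPM together, with TBR1 and SYT6 at 0. In the post-processed sum 12 were detected, at 5405 CPM together, with GRIN1, STMN2, NEFM, TBR1, SST, VIP and SYT6 at 0. SYT1, a neuronal synaptic vesicle gene, had 1218 CPM before and 46.5 CPM after processing. The part of such RNA in the respiratory chain levels was not tested. The respiratory chain genes are used by every cell type, so no class gives a background level for them.

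Oligodendrocyte-like nuclei had 1291 CPM before and 1286 CPM after processing (1104 to 1489), from 385 and 179 UMIs, a ratio of -0.0041 (-0.27 to 0.25), and -0.11 on the median gene scale. With classes assigned by marker UMIs alone the ratio was 0.20 (0.02 to 0.38), an interval above 0. In the class from clusters 9 genes were measured, of which 0 were at least 2-fold higher, against 4.42% of all measured genes. At least 2-fold lower were 2 (NDUFA10 and UQCRH), against 13.3%. ATP synthase had 235 and 366 CPM in these nuclei, a ratio of 0.65 (0.09 to 1.18), and complex I had 674 and 625 CPM, a ratio of -0.10 (-0.49 to 0.26). At 1000 to 3000 UMIs the ATP synthase ratio was 0.70 (-0.02 to 1.36), no longer beyond counting error, and that of complex I was -0.60 (-1.23 to -0.06), below 0. The neuronal marker SYT1 had 674 CPM before and 101 CPM after processing in this class. Post-processed endothelial-like nuclei had 2330 CPM (1925 to 2794), against 4029 CPM (3103 to 5145) in the 8 pre-processed ones. The 2 post-processed astrocyte-like nuclei had 4248 CPM (3182 to 5556), against 1997 CPM before processing. In both of these classes the intervals do not overlap, but one side of each comparison rests on only 8 or 2 nuclei.

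Shares of nuclei with a respiratory chain UMI were compared before and after thinning to equal depth. 93.2% of pre-processed and 66.8% of post-processed nuclei had at least 1 such UMI. After thinning every nucleus to 200 UMIs, the shares were 25.3% (23.5 to 27.2) of 2125 pre-processed and 32.3% (27.8 to 37.1) of 405 post-processed nuclei, with 89 post-processed nuclei left out as shallower. At 1000 UMIs they were 73.3% of 2004 and 80.6% of 201. Over all nuclei the order of the libraries thus turned after thinning. Among the nuclei with 1000 to 3000 UMIs the thinned shares of the libraries did not differ beyond counting error. These shares were 28.0% (25.4 to 30.8) before and 27.2% (19.9 to 35.5) after processing at 200 UMIs, and 78.1% and 78.7% at 1000 UMIs. Microglia-like nuclei thinned to 200 UMIs had shares of 32.9% (23.1 to 43.98) and 33.3% (26.5 to 40.7). Before thinning these were 87.1% and 82.8%. Neuron-like nuclei had 21.7% (19.2 to 24.3) and astrocyte-like nuclei 31.1% (26.3 to 36.2) at 200 UMIs, against 96.5% and 96.9% before thinning.

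The post-processed barcodes with fewer than 100 genes had a higher level than the nuclei. They had 5484 CPM (4664 to 6405), a ratio to the post-processed nuclei of 1.37 (1.12 to 1.60). 18 of 32 measured genes were at least 2-fold higher, or 56.3%, against 20.3% of all measured genes. NDUFA13 had 21 UMIs there, a ratio of 2.14 (1.37 to 2.79), ATP5ME had 16, a ratio of 2.19 (1.29 to 2.93), and NDUFA2 had 11, a ratio of 2.68 (1.53 to 3.59). SDHB had 4 UMIs, and its ratio of -0.09 (-2.15 to 1.14) was near 0. Complex II as a whole had a ratio of 0.17 (-1.41 to 1.21), against 1.66 (1.23 to 2.04) for ATP synthase. The ribosomal protein ratio was 1.97 (1.87 to 2.07). Against the shallower nuclei alone, those with 100 to under 500 genes, the ratio of the summed level was 1.02. Cluster 5, the shallow post-processed cluster, had 3470 CPM (3045 to 3938) at a median of 230 UMIs.

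Of the neuron-like clusters, 1 stood above the others. Cluster 9, led by LHX6 and SST, genes of inhibitory interneurons, had 1539 CPM (1442 to 1641) in 93 nuclei, and was chosen for description after its level was seen. The other 6 neuron-like clusters had from 970 to 1200 CPM and 1091 CPM together, and the ratio was 0.50 (0.40 to 0.59). Among these 6 was cluster 8, with the interneuron genes RELN and VIP among its leading genes, at 1044 CPM (964 to 1130). The higher level was thus not shared by both clusters with interneuron genes in the lead. 7 of 38 genes were at least 2-fold higher in cluster 9, or 18.4%, against 9.41% of all measured genes, and 32 were above 0, against 54.1%. Ribosomal protein genes had a ratio of 0.19 (0.09 to 0.29) in the same comparison. UQCRH had 84.6 CPM in cluster 9 and 51.1 in the others, NDUFA13 had 51.4 and 24.1, and ATP5PF had 61.4 and 31.2. SDHB (189 and 165 CPM) and NDUFAF7 (82.9 and 79.3 CPM) had intervals that include 0.

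Among nuclei between 4000 and 8000 UMIs, cluster 9 had 1596 CPM in 24 nuclei and the other neuron-like clusters 1201 CPM, a ratio of 0.41 (0.20 to 0.61). 10 of 32 measured genes were at least 2-fold higher, or 31.3%, against 9.58% of all measured genes, and the ribosomal protein ratio was -0.03 (-0.24 to 0.18). PPARGC1A, a coactivator gene described further on, had 5526 CPM in all nuclei of cluster 9 and 2152 CPM in the other neuron-like clusters, a ratio of 1.36 (1.31 to 1.41). It is 1 of 7 measured regulators, of which 3 had a ratio above 0 in that comparison, with a median of -0.13. NRF1, a transcription factor of respiratory genes, went the other way, at -0.65 (-0.90 to -0.43). Between 4000 and 8000 UMIs the intervals of cluster 12, with 1695 CPM (1302 to 2168) in 7 nuclei, and cluster 11, with 1376 CPM (1031 to 1800) in 6 nuclei, overlap that of cluster 9. Median UMIs still differed within the range, at 6100.5 in cluster 9, 5088 in cluster 12 and 6966 in cluster 11.

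**Figure D5:**
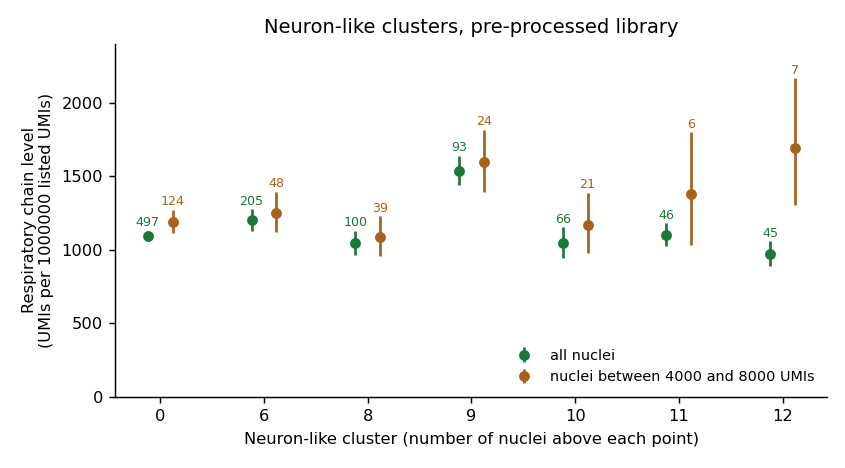
Summed level of the 39 genes in each neuron-like cluster of the pre-processed library, over all nuclei (green) and over nuclei between 4000 and 8000 UMIs (brown), with exact Poisson 95% intervals and the number of nuclei above each point. Cluster 9 lies at 1539 over all nuclei, above the range of 970 to 1200 of the others, and between 4000 and 8000 UMIs its interval overlaps those of clusters 11 and 12.

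Unnamed cluster 2 had more than double the neuron-like level. Its 334 nuclei had 2393 CPM against 1129, a ratio of 1.08 (0.999 to 1.17), and 22 of 38 genes were at least 2-fold higher, or 57.9%, against 19.8% of all measured genes. ATP synthase had 749 against 231 CPM, or 1.70 (1.54 to 1.85), while the assembly factors had 103 against 97.7 CPM, or 0.09 (-0.34 to 0.47). SDHB had a ratio of 0.18 (-0.13 to 0.46), like the assembly factors below the median gene ratio of 0.27, and SDHC of 2.13 (1.38 to 2.79). The level was not lower in the deeper nuclei of the cluster, going from 2202 CPM between 1000 and 2000 UMIs to 3819 CPM (3336 to 4352) in its 5 nuclei with at least 8000 UMIs, and without those 5 its level was 2223 CPM. All 19 listed neuronal markers and all 7 listed astrocyte markers were detected in the cluster, at 32106 and 4130 CPM together. Their part in the level was not tested.

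Other genes of the pathway were read on lists chosen by function. Over all 7615 measured genes, 30.4% were at least 2-fold higher in the post-processed library and 24.7% at least 2-fold lower. Of 10 other genes of the chain and its assembly, among them LRPPRC, TIMMDC1 and SDHAF3, none was at least 2-fold higher or lower in the post-processed library, and their median ratio was 0.35, close to the 0.33 of all genes. Of 6 measured citrate cycle genes none passed 2-fold, with a median of 0.50. Of 36 mitochondrial ribosome genes 5 were at least 2-fold higher (MRPL9, MRPL41, MRPL44, MRPL52 and MRPS18C) and 2 lower (MRPS5 and MRPS22), with a median of 0.41. Against these, 32 of 33 cytosolic ribosomal protein genes were at least 2-fold higher, and their median ratio was 2.55.

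Known regulators of the chain differed from one another in direction. PPARGC1A encodes PGC-1alpha, a coactivator of genes for mitochondrial proteins. Its level was 2108 CPM over pre-processed nuclei against 171 CPM over post-processed ones, a ratio of -3.62 (-3.88 to -3.37), and in the pre-processed library 2433 CPM in neuron-like against 844 CPM in the other named nuclei. PPARGC1B, its relative, had 214 and 103 CPM in the libraries, or -1.04 (-1.40 to -0.73), and 245 against 75.5 CPM between neuron-like and other nuclei. NRF1, a transcription factor of respiratory genes, had 402 and 302 CPM in the libraries, or -0.41 (-0.61 to -0.22). GABPA, a subunit of the factor NRF-2, had 34.9 and 71.9 CPM, or 1.05 (0.60 to 1.46). In microglia-like nuclei PPARGC1A had 388 and 188 CPM before and after processing, a ratio of -1.05 (-1.55 to -0.52). The neuronal marker SYT1 had 1218 and 46.5 CPM in the same sums, and the part of neuronal RNA in this PPARGC1A ratio was not tested. Neuron-like nuclei had more PPARGC1A and PPARGC1B RNA than the other named nuclei and a lower level of respiratory chain RNA. GABPA was lower in them, with 28.7 against 58.7 CPM, a ratio of -1.03 (-1.38 to -0.68), and so was TFB1M, a methyltransferase of mitochondrial ribosomal RNA, at -0.93 (-1.52 to -0.28). NRF1, at 0.06 (-0.06 to 0.18), and GABPB1, the partner of GABPA, at -0.02 (-0.19 to 0.15), did not differ beyond counting error, nor did POLRMT, the mitochondrial RNA polymerase, at 0.26 (-0.57 to 1.29). Between the libraries TFB1M (0.57), GABPB1 (-0.0053) and POLRMT (-0.26) had intervals that include 0.

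Some genes cannot be read alone. By the RefSeq positions, 10 of the 39 genes overlap another gene, and 6 overlap a protein-coding one. These are UQCRH with LRRC41, SDHC with LOC114110816, ATP5PF with GABPA, NDUFAF7 with PRKD3, NDUFA2 with TMCO6, and NDUFA4L2 with R3HDM2, STAC3 and SHMT2. No source used here says whether the counting used strand, and reads of these pairs may be shared. Reads of processed pseudogenes, which many respiratory chain genes have, may also be split or lost.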

How the data were processed

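The deposited matrices give counts of UMIs, as whole numbers and not normalized, for each feature in each barcode. Per the submitters' processing notes they came from DRAGEN, and the series description adds Seurat for later steps. Its version is not given, nor are genome build, annotation or barcode calling, and coordinates are left out for that reason. The kit is a droplet-based 3' assay, per the labels.

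A barcode counted as a nucleus from 100 detected genes up. Clusters of both libraries together came from Seurat 5.3.0 in R 4.3.3, after log-normalization to 10000, on 30 components of 2000 variable genes that held no respiratory chain gene, at resolution 0.5 and with no integration. No doublet caller was run here and no doublet was removed. A cluster took the class whose listed markers had the highest mean log2 fold over the 25th percentile of the other clusters, given at least 3 markers raised 1.5-fold. It stayed unnamed when the lead over the next class was under 0.5 or when another class's marker led its 10 top genes. This rule was written after the clusters were seen, and the genes, lists and comparisons were chosen with earlier results of these data known.

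Levels are summed counts per 1000000 listed UMIs with exact Poisson intervals. Ratios are log2 with 0.5 counts added to each side, for single genes and for sums of genes. They have exact conditional binomial intervals, and shares have Clopper-Pearson intervals, all at 95%. A gene is measured in a comparison when both sums together hold at least 20 UMIs. The median gene ratio and its scale use genes with at least 20 UMIs in each sum, which is a narrower set. The calculation, in Python 3.11.15 with scipy 1.17.1, was tested on simulated data. Named are the 4 measured genes with the most UMIs in each complex, the 3 assembly factors, the 5 highest and 5 lowest library ratios and both members of paralogue pairs. The values of 1 gene under this rule are not reported here. Alternatives changed the scale, filters, classes, resolution and depth range.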

Additional observations from a re-analysis of the deposited data

How the results depend on the processing

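With 1 library per condition, leaving out a replicate was not possible. No paired analysis was possible because each condition has 1 library and no result comes from a test. Of 61 alternatives none reversed a direction beyond its interval, 43 moved a result by less than its interval or by less than 1.5 times, and 18 moved it. The library ratio over all nuclei (0.69) became 0.018 on the median gene scale, 0.78 without the gene with the most UMIs, 0.58 without the 5% of nuclei with the most UMIs, 0.77 with no gene minimum and 0.050 at 1000 to 3000 UMIs. The count of genes at least 2-fold higher (13) became 3 on the median gene scale and 4 at 1000 to 3000 UMIs. The microglia-like ratio (0.04) became 0.40 with classes from marker UMIs. The neuron-like ratio (-0.65) became -0.19 on the median gene scale, -0.54 at resolution 0.2, -0.44 with classes from marker UMIs, and, in alternatives chosen after seeing the data, -0.24 at 1000 to 3000 UMIs and -0.36 without astrocyte-like nuclei. The shallow over deep ratio (0.93) became 0.49 on the median gene scale, 1.05 without the gene with the most UMIs, 0.70 in neuron-like nuclei alone and 0.67 with quartiles by detected genes. The ratio of barcodes under 100 genes (1.37) became 1.02 against nuclei with 100 to under 500 genes. The cause of these shifts was not tested. Clustering with the respiratory chain genes kept gave the same clusters, because none of them was a variable gene. The alternatives that use it are counted among the 43, although they could not have moved a result. A planned search of promoter motifs was not run. Depth limits single genes within classes, since most had under 20 UMIs in the pre-processed microglia-like nuclei.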

Other observations

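Glycolytic genes, the other main source of ATP, were compared in the same way. Of 7 measured genes 1, PFKL, was at least 2-fold higher in the post-processed library, against 30.4% of all measured genes. PFKM and ENO2, 2 of the 7, were at least 2-fold lower, against 24.7%, and the median ratio was -0.09. No post-processed nucleus was neuron-like. PFKM had 193 CPM before and 15.7 CPM after processing, from 1850 and 12 UMIs, and ENO2 had 1821 and 3 UMIs, a log2 ratio of -5.38 (-7.88 to -4.05). Between neuron-like and other named pre-processed nuclei they split. ENO2, the neuronal enolase, had 220 CPM in neuron-like and 62.1 CPM in other nuclei, a log2 ratio of 1.82 (1.55 to 2.12). TPI1, triosephosphate isomerase, had 27.9 and 82.2 CPM, a ratio of -1.56 (-1.87 to -1.24), and GAPDH had 76.8 and 158 CPM, a ratio of -1.04 (-1.25 to -0.83). PFKM, the muscle-type phosphofructokinase, had 180 and 222 CPM, a ratio of -0.30 (-0.47 to -0.14). GAPDH also showed a depth gradient, with 223 CPM in the shallowest and 72.7 CPM in the deepest quartile of pre-processed nuclei, a ratio of 1.62 (1.33 to 1.90).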
